A study of Mus musculus with 20 samples.

Results

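Late-opening chromatin sites were followed through the loss of Hoxa9 activity in cultured mouse myeloid cells. These sites were absent from the peak lists of 0, 4, 8, 12 and 24 h after the hormone E2 was removed, and present in every list of 48, 72, 96 and 120 h, whether or not they were listed at 36 h. Overlapping peaks of the 10 lists were joined into 88351 regions, and 431 of these met the rule, which is 0.488% of all regions and 4.68% of the 9201 regions absent at 0 to 24 h. They were selected on presence in the lists, so their pattern over time is a description and not a finding. Of the 431 regions, 250 were already listed at 36 h and 181 were first listed at 48 h.

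Accessible DNA was mapped by ATAC-seq, which uses the Tn5 transposase to cut open chromatin and attach sequencing adapters. All 20 samples were ER-Hoxa9-Lys-GFP cells of C57BL/6 strain, cultured in RPMI with serum and SCF-conditioned medium. At 0 h, 2 samples were grown with E2, and 2 samples were taken at each of 4, 8, 12, 24, 36, 48, 72, 96 and 120 h after washing in PBS and transfer to medium without E2. The nuclei of a preparation went into 2 transposition reactions, which means that the pairs of samples may be technical replicates, and the labels do not say whether the line is 1 clone. The cells carry the fusion in every group, the 0 h controls included. Both samples of a time share 1 deposited peak list, so there is no spread between replicates, no p-value was computed, and every interval is a 95% Wilson interval that covers counting error only. A peak list says where a peak was called, not how many reads lay under it, and the read depth is unknown.

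Hoxa9 is a homeobox transcription factor that keeps myeloid progenitors immature. In an estrogen receptor fusion it needs E2, and its loss lets the cells mature into neutrophils in culture. A maturing neutrophil first fills its primary granules, then its secondary and tertiary granules, and at the end gains surface receptors, integrins, the NADPH oxidase and large amounts of the cytosolic proteins S100a8, S100a9 and the stefins A. Stefins A are small inhibitors of cysteine cathepsins, encoded by a tandem family on mouse chromosome 16. Sites that open late and stay open are often enhancers bound by C/EBP, PU.1 and related factors. Peak presence near marker genes could not check the cell type at 0 h: 11 of 12 primary granule genes with a peak had one at 0 h, and so did 18 of 20 lymphoid genes.

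Promoters that entered the lists at 36 or 48 h are shown first, because they carry the clearest link from a region to a gene. For 18 RefSeq promoters the 250 bases before the transcription start site (TSS) lay wholly within a late-opening region. The 5 printed here are those of the alarmin S100a8, the stefins Cstdc4 (Gm5483 in the deposited annotation) and Stfa3, the ubiquitin ligase Marchf1 (deposited as March1), which removes MHC class II from the cell surface, and the chromatin protein Hp1bp3. They are RefSeq sequences of GRCm38.p6, the same sequence as mm10, written 5′ to 3′ on the strand of the gene and ending at the base before the TSS. Capitals mark matches, on either strand, to the letters given after them.
S100a8: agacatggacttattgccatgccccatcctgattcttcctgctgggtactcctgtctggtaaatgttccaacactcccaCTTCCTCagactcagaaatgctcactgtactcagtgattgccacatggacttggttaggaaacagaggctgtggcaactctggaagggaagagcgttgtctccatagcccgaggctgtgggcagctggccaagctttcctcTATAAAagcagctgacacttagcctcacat
Cstdc4: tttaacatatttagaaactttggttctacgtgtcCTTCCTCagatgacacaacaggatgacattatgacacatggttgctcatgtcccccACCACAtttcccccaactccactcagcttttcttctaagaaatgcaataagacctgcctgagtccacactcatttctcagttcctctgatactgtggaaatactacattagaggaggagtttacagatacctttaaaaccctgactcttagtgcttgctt
Stfa3: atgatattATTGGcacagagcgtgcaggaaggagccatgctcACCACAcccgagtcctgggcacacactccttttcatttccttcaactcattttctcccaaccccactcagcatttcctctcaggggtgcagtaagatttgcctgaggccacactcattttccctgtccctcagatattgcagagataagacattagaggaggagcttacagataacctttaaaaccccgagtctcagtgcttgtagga
Marchf1: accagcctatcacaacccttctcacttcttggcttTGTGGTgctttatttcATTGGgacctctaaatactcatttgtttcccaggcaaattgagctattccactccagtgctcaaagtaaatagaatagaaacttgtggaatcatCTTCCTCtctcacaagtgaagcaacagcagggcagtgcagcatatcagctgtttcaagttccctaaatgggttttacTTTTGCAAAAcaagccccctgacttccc
Hp1bp3: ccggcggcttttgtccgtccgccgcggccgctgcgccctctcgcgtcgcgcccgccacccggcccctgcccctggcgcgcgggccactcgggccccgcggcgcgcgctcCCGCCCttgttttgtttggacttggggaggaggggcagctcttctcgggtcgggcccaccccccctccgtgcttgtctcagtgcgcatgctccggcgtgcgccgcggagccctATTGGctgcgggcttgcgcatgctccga

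The S100a8 window is chr3:90668821-90669070 on the plus strand, the Cstdc4 window chr16:36183962-36184211 on the plus strand and the Stfa3 window chr16:36455393-36455642 on the minus strand. The Marchf1 window is chr8:66386051-66386300 and the Hp1bp3 window chr4:138216877-138217126, both on the plus strand. The PU.1 letters GAGGAAG were found in S100a8, Cstdc4 and Marchf1 and in 5 of the 18 windows, against 10.6% of 32851 RefSeq promoters. The C/EBP letters TTNNGCAA were found in Marchf1 and in 4 of the 18, against 9.56% of all. The RUNX letters TGTGGT were found in Cstdc4, Stfa3 and Marchf1 and in none of the other 15, against 14.0% of all. The AP-1 letters TGANTCA were in 0 of the 18 windows, against 6.75% of all promoters. The TATA letters TATAAA were in S100a8 alone of the 18, at -30 from the TSS, where the base before the TSS is -1, and the share over all promoters was 12.4%. The GC box GGGCGG was in 5 of 18 windows against 32.7% of all, and the CCAAT letters were in 7 of 18 against 33.8%. Hp1bp3 held 36 CpG dinucleotides, the most of the 18, whereas the median of the 18 was 2.5 and that of all promoters was 6. A match is a description of the letters, and 18 windows are too few to set a share apart from that of all promoters.

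S100a8 and the stefins Gm5483 and Stfa3 were among the genes whose own promoters entered the lists in this window. S100a8 and its partner S100a9 form calprotectin, the most abundant protein of the neutrophil cytosol. The S100a8 promoter region (chr3:90668642-90669532, 16 bp from the TSS) was listed with a peak of 704, 850, 891, 839 and 876 bp in the 36, 48, 72, 96 and 120 h lists. It was broad from the list in which it first appeared, since the median of all late-opening regions at 36 h was 353 bp. A second region of the locus (chr3:90659199-90660067), assigned to S100a7a at 5328 bp from its TSS, was listed with 551 bp at 36 h and 849 bp at 120 h. The S100a9 promoter was not among the late-opening regions: it was absent up to 48 h and listed at 72, 96 and 120 h. The neighbouring promoters thus entered the lists at different times, S100a8 at 36 h and S100a9 at 72 h. Other regions assigned to S100a9 were listed before 72 h. One 2060 bp after its TSS was listed at 48 and 72 h only. Another, 8767 bp after it, was listed at 36, 48, 96 and 120 h but not at 72 h.

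The stefin A cluster (chr16:36134212-36505392, with flanks) held 28 regions, of which 5 were late-opening, 4 opened at 24 h, 4 opened at 72 h and 4 were in all 10 lists. Of all 88351 regions, 431 were late-opening, 643 opened at 24 h, 279 opened at 72 h and 12178 were in all lists. Stfa3 was named by rule for its 2 late-opening regions, so the cluster was not picked independently of them. The 0 h list held 5 peaks there and the 24 h list 13, and the 48, 72 and 120 h lists held 17, 23 and 22. Over the same lists the total number of peaks fell from 62559 at 24 h to 23620 at 120 h. Promoters of the family entered the lists at different times, and each of the following stayed in every later list. Stfa1 was first listed at 12 h, BC117090 and BC100530 (Cstdc5 in RefSeq) at 24 h and Gm5483 at 36 h. Stfa3 followed at 48 h, Stfa2l1 at 72 h and Stfa2 at 96 h. The promoter of Gm5416 (Csta3 in RefSeq) was listed at 36 h, absent at 48 h and listed again from 72 h. A RefSeq promoter window of Cstdc3 (chr16:36307770-36308019), where the deposited annotation places no TSS, was in all 10 lists from 0 h. Another RefSeq window of Cstdc3 (chr16:36305107-36305356) and that of Csta2 were in no list.

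The Stfa3 promoter region (chr16:36455141-36456073) had a peak of 613, 749, 886 and 777 bp in the 48, 72, 96 and 120 h lists. The Gm5483 promoter region (chr16:36183883-36184406) had one of 296, 321, 439, 499 and 520 bp in the 36, 48, 72, 96 and 120 h lists. The other late-opening regions of the cluster lay 10243 bp before the Stfa3 TSS, 15417 bp before the BC100530 TSS and 12205 bp after the Stfa1 TSS. For 6 of the promoters that entered and stayed, the last 60 bases before the TSS are shown in the order in which they were first listed. Capitals mark the longest run of letters that all 6 share and, outside it, the next longest, both found after these promoters were picked. BC117090 is not shown, and neither is the RefSeq entry Gm7260, whose window was listed from 24 h and where the deposited annotation gives no TSS.
Stfa1: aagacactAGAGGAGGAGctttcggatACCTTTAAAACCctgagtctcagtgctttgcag
Cstdc5: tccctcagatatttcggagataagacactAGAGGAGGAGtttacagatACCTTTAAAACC
Cstdc4: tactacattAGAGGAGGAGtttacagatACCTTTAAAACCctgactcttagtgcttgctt
Stfa3: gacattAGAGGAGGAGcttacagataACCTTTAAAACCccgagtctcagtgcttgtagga
Stfa2l1: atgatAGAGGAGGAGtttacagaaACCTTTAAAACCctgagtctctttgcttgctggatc
Stfa2: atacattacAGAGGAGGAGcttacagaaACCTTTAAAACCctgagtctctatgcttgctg

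The longest shared run was ACCTTTAAAACC, of 12 letters, and the next was AGAGGAGGAG, of 10 letters. ACCTTTAAAACC was found, on either strand, in the 250 bases of 11 of 32851 RefSeq promoters, and 9 of these 11 lay in the cluster, Cstdc3, listed from 0 h, among them. AGAGGAGGAG was found in 268 promoters, or 0.816%, 7 of them in the cluster. Over 250 bases, Stfa1 was 83.1% identical to Stfa3 in a global alignment, Stfa2l1 80.3%, Stfa2 80.2%, Cstdc5 71.8% and Cstdc4 67.3%. Among these 5, the promoters listed earliest and latest, Stfa1 at 12 h and Stfa2 at 96 h, were about equally like Stfa3. The Cstdc3 window listed from 0 h was 65.0% identical to Stfa3, Gm7260 62.1% and Csta3 58.1%. The longest run shared letter for letter with Stfa3 was 15 to 18 bases in the 5 promoters shown beside it. It was 28 bases in Csta3 and 23 in the Cstdc3 window listed from 0 h. Other pairs of the family were not compared. Reads that fit more than 1 promoter of the family could be shared or lost between them, which was not tested. The labels and headers do not say how such reads were treated, so the order within the family is uncertain.

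**Figure D1:**
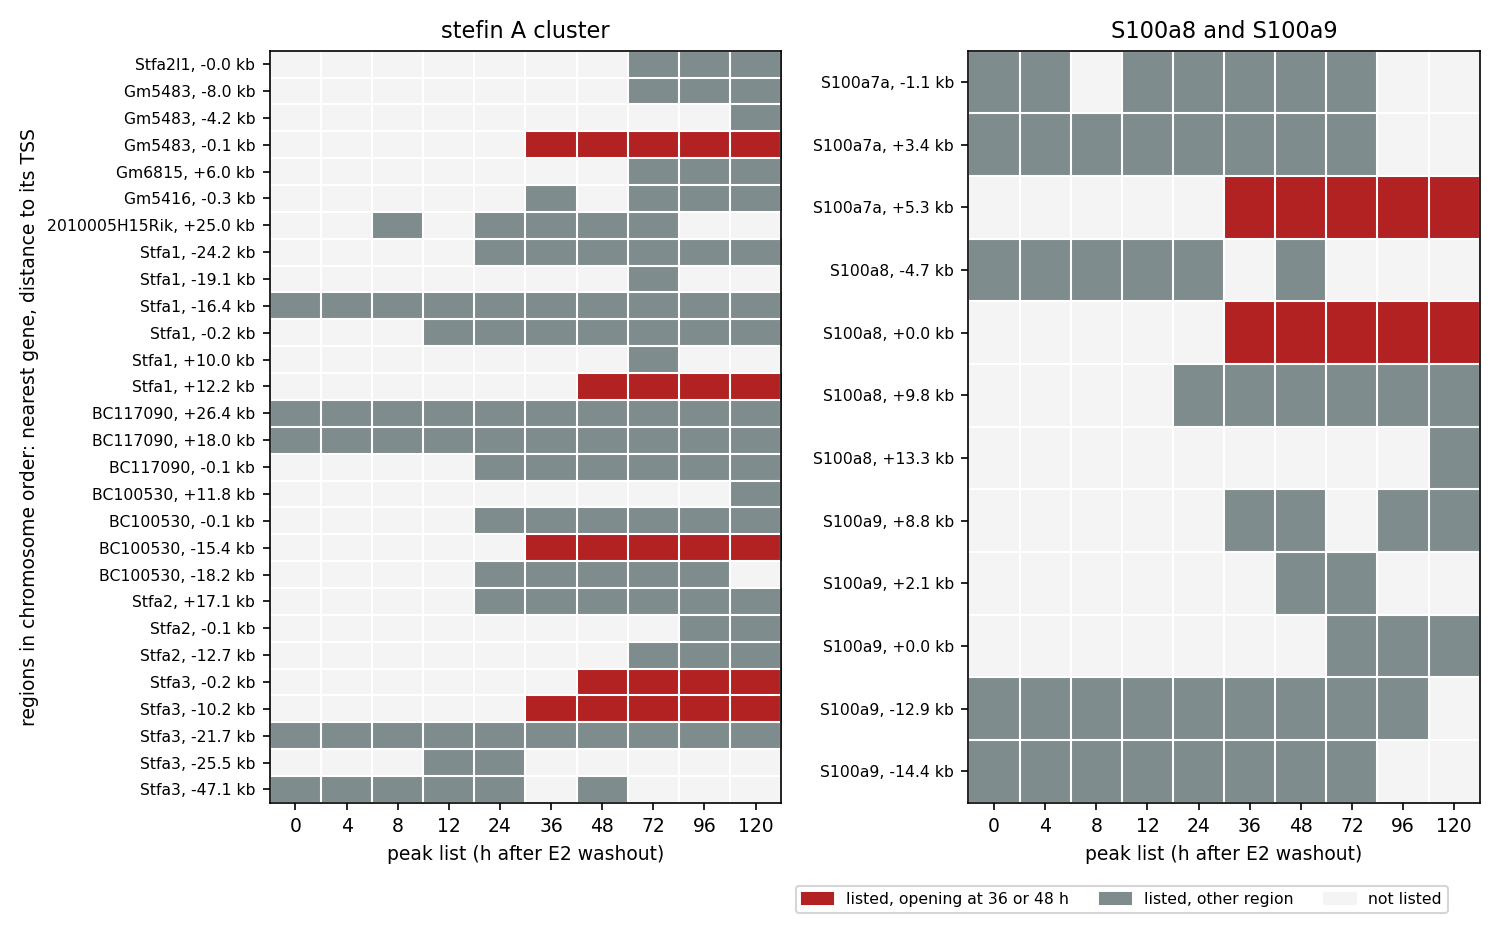
Presence of each region in the 10 peak lists at the stefin A cluster (left, 28 regions) and at S100a8 and S100a9 (right, 12 regions). Rows are regions in chromosome order, named by the nearest gene and the distance to its TSS in kb, columns are lists in hours after E2 washout, red marks the regions that opened at 36 or 48 h, grey the other listed regions and pale cells no peak. The S100a8 promoter starts at 36 h and the S100a9 promoter at 72 h, and the stefin promoters that enter after 0 h start at 12 to 96 h.

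Granule, oxidase and surface genes had 1 to 3 late-opening regions per list. The share was 1.35% (1 of 74 regions) for secondary and tertiary granule genes, 1.67% (1 of 60) for oxidase genes and 1.27% (3 of 236) for surface genes, against 0.488% of all regions. The granule and oxidase lists share their 1 region, at Cybb. So few regions do not set these shares apart from that of all regions. Cybb, the membrane subunit gp91phox of the NADPH oxidase and a protein of secondary granules, was the only one of 20 secondary and tertiary granule genes with such a region. It lay in intron 3 of 12 of Cybb (chrX:9462695-9463237), 6354 bp after the TSS, and its peak was 374, 411, 427 and 535 bp in the 48, 72, 96 and 120 h lists. Cybb had no peak within its body or 20 kb around it before 48 h, and the nearest peak of an earlier list was 56660 bp away. That window held 1, 3, 4 and 3 peaks in the 48, 72, 96 and 120 h lists.

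Of 34 surface and chemotaxis genes, Il1r2 and Pilra had late-opening regions. Il1r2, the decoy receptor that binds interleukin-1 without signalling, had 2. The upstream one (chr1:40037845-40038545), 46522 bp before the TSS, overlapped an MTE2a repeat of the ERVL-MaLR class and had a peak of 359, 686, 668 and 658 bp in the 48, 72, 96 and 120 h lists. The one in intron 1 of 8 (chr1:40087455-40087794), 1531 bp after the TSS, was listed from 36 h, with peaks of 277, 313, 340, 271 and 244 bp in the 5 lists, so it did not widen by 120 h. Pilra, an inhibitory receptor of myeloid cells, had a region 1037 bp before its TSS (chr5:137837093-137837538) that was widest, at 446 bp, in the 36 h list and 373 bp at 120 h.

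The integrin chains Itgam (CD11b) and Itgal (CD11a), partners of Itgb2 in neutrophil adhesion, each had a late-opening region in intron 1 next to a promoter that was open in all lists. At Itgam (chr7:128063239-128063740) it lay 841 bp after the TSS and 392 bp from a region present in all 10 lists, with peaks of 222, 424, 485, 457 and 476 bp in the 36, 48, 72, 96 and 120 h lists. At Itgal (chr7:127297029-127297495) it lay 989 bp after the TSS and 209 bp from such a region, with peaks between 322 and 441 bp. At this spacing a site of its own and an extension of the accessible promoter cannot be told apart from peak positions.

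Inflammatory and sensor genes had regions farther out. The Il1b region (chr2:129410232-129410856) lay 39405 bp before the start of this interleukin-1β gene and had peaks of 278, 317, 625, 361 and 445 bp in the 36, 48, 72, 96 and 120 h lists. The Ier3 region (chr17:35807696-35808457), 13702 bp before this stress-response gene, was first listed at 48 h with 382 bp and had 552 bp at 120 h. The Nfkbia region (chr12:55466238-55466660), near the gene of the NF-κB inhibitor IκBα, lay only 42 bp from a peak of an earlier list, the smallest such gap of the 431. Tlr7, a sensor of single-stranded RNA, was the nearest gene of a region in intron 4 of 6 of Prps2 (chrX:167353519-167354210), with a peak of 295, 575 and 366 bp in the 36, 72 and 120 h lists. Nlrp1a, an inflammasome sensor, was assigned 2 regions in introns 12 and 8 of 14 of its neighbour Nlrp1b, at chr11:71159336-71160068 and chr11:71164190-71164525. The first of them had a peak of 357 bp at 36 h and 689 bp at 48 h, and the second one of 323 to 333 bp from 48 h on.

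Cell migration, lipid and survival genes completed the lists. Myo1f, an unconventional myosin of neutrophils, had a region in intron 1 of 27 (chr17:33564590-33565012) with peaks from 228 bp at 48 h to 405 bp at 120 h. Pak1, a kinase downstream of Rac, had one in intron 1 of 14 (chr7:97821759-97822564) that reached 759 bp at 96 h and was 413 bp at 120 h. The regions nearest to Cdc42ep3, an effector of Cdc42, and Rgs2, which shortens G-protein signals, lay 51723 and 86342 bp after their TSS and were first listed at 48 h. Bcl2l11, which encodes the death-promoting protein Bim, had 2 regions in intron 14 of 17 of Acoxl (chr2:128057927-128058207 and chr2:128065488-128066046), both first listed at 48 h. Cflar, an inhibitor of caspase-8, had 1 in its intron 2 (chr1:58726829-58727631) with a peak of 563 bp at 36 h and 793 bp at 72 h. The region assigned to Pla2g4a, the phospholipase that releases arachidonic acid, lay 1631638 bp from its TSS, the largest distance of the 431, so that assignment says little about the gene.

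Among 47 transcription factor genes, Klf3 and Klf5 had late-opening regions, and the list's share of 0.493% of its 608 regions was that of all regions, 0.488%. Klf3, a repressor of the Krüppel-like family, had one 50210 bp before and one 30792 bp after its TSS, both listed from 36 h. Klf5, an activator of the same family, had this as its only region in any list (chr14:99279002-99279569), 19414 bp before its TSS, with peaks of 432, 457, 472, 410 and 551 bp in the 36, 48, 72, 96 and 120 h lists. No earlier peak lay within 88506 bp of it.

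**Figure D2:**
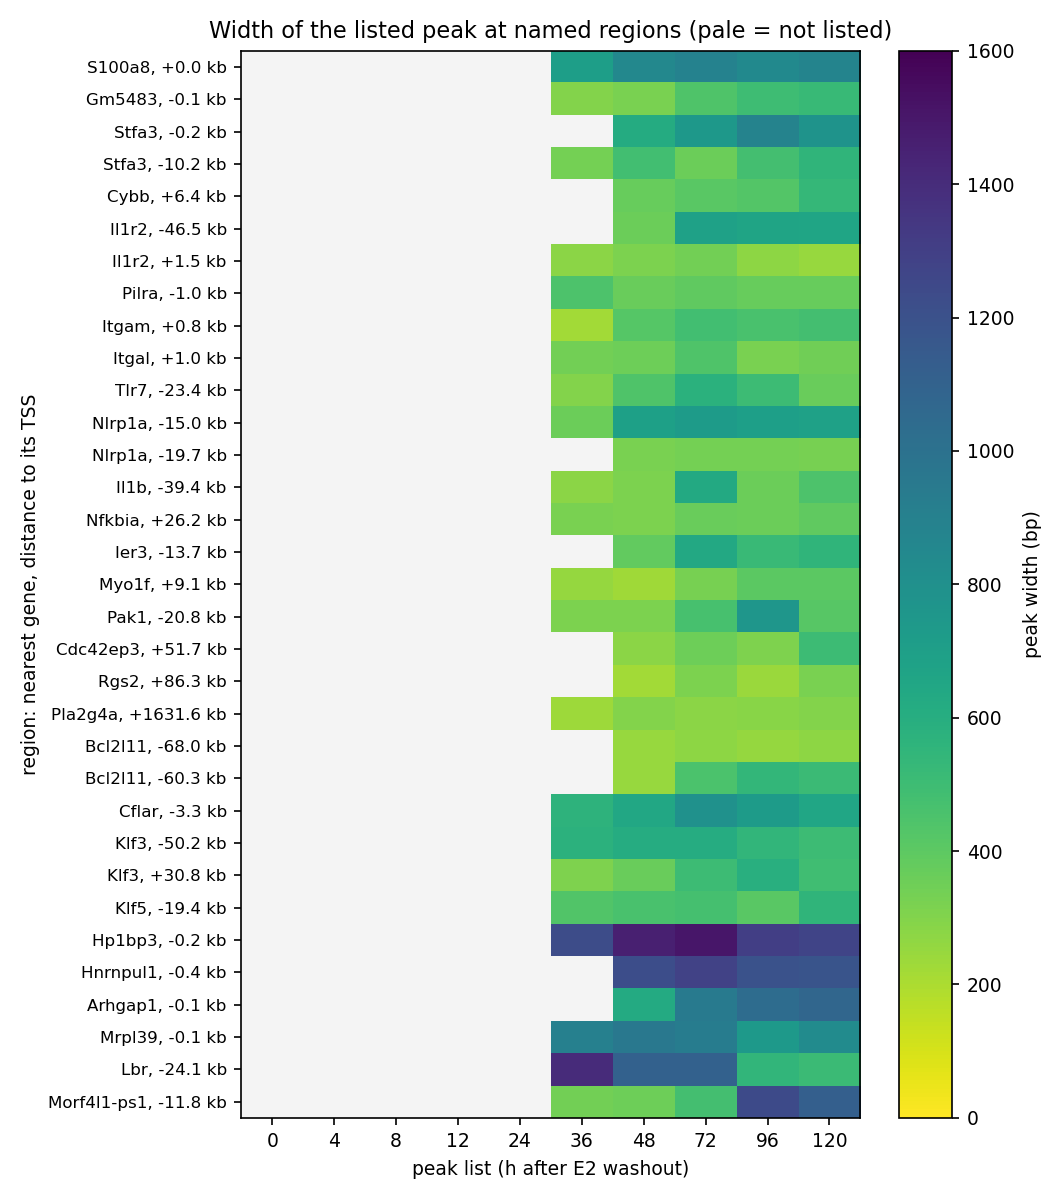
Width in bp (colour) of the listed peak at named late-opening regions in each of the 10 lists, in hours after E2 washout. Rows are regions with the nearest gene and the distance to its TSS in kb, and pale cells mean no peak, which the selection fixes for 0 to 24 h. Hp1bp3 reaches 1503 bp at 72 h, whereas the regions of Rgs2, Pla2g4a and the farther one of Bcl2l11 stay at or below 320 bp.

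Over whole gene lists, 18 of 236 genes in 10 lists of mature neutrophil functions had a late-opening region, against 2.12% (413 of 19463) of all genes with a peak. These genes have many peaks, so the share per region is the closer comparison: 21 of their 2065 regions were late-opening, or 1.02% (0.666 to 1.55%), against 0.488% of all regions. Survival genes had 3 of 142 regions, actin and migration genes 4 of 317, inflammatory genes 3 of 216 and myeloid transcription factors 3 of 608, which is 0.493%. The 7 lists of earlier stages and other cells (primary granule, macrophage and monocyte, progenitor, lymphoid, erythroid and megakaryocyte, mast and eosinophil, and non-blood genes) had 0 late-opening regions among 874, which allows a share of up to 0.343% when 3 counts are taken as the limit (Wilson upper bound 0.438%), and 0 of 130 genes. Of the 20 housekeeping genes 1, Eef1a1, had a region, 50953 bp before its TSS. That is 1 of 114 regions, or 0.877%, which is also above the share of all regions but rests on 1 region. Of the 2065 neutrophil-list regions, 41 opened at 24 h, or 1.99% (1.47 to 2.68%), and 18 at 72 h, or 0.872% (0.552 to 1.37%). Of the 874 regions of the 7 other lists, 5 opened at 24 h, or 0.572% (0.245 to 1.33%), and 1 at 72 h, or 0.114% (0.0202 to 0.645%). Over all 88351 regions, 643 opened at 24 h and 279 at 72 h, which are smaller shares than in the neutrophil lists. A neutrophil-list share above that of all regions is thus not particular to the late-opening set. Without the 24 h list in the rule, 60 of the 236 neutrophil-list genes had a region, and 5 of the 130 of the 7 other lists. Over all 19463 genes, 1015 did. Without the 120 h list the counts were 27, 4 and 664. The lists were written with earlier results of these data known, and no set test was made.

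**Figure D3:**
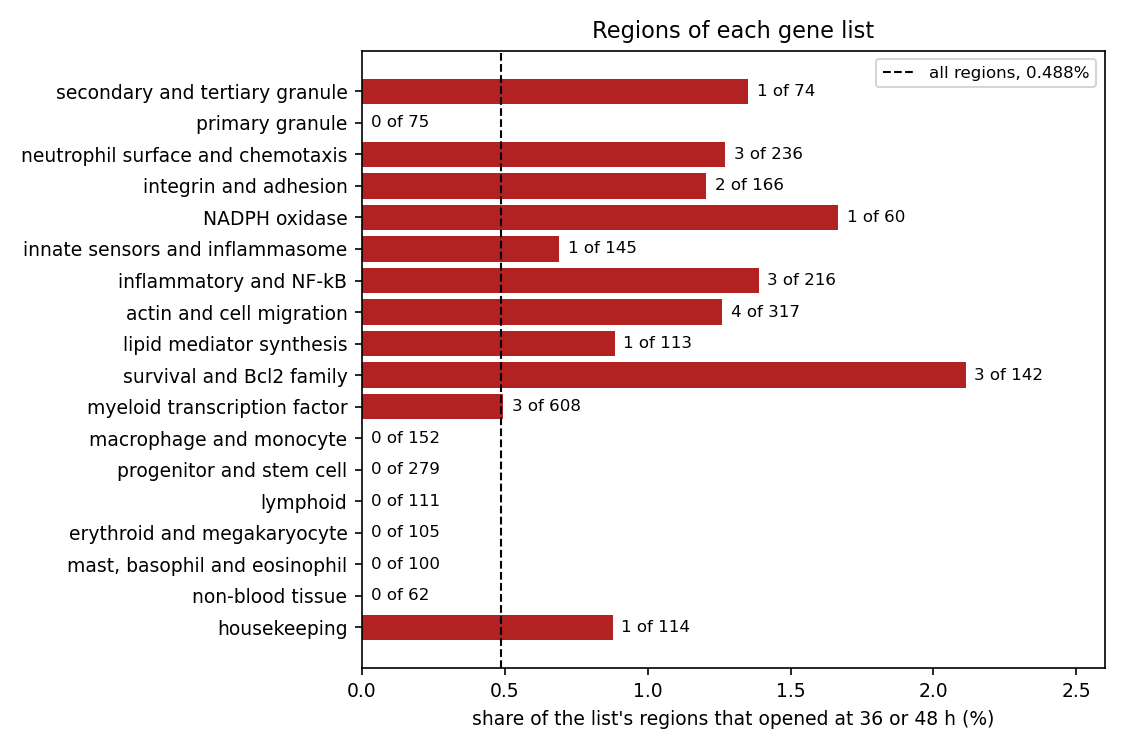
Share in % of the regions of each gene list that opened at 36 or 48 h, with the counts beside the bars and the share over all regions, 0.488%, as a dashed line. Bars rest on 0 to 4 regions each, and the 7 lists of earlier stages and other cells have none.

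Other myeloid surface genes, chosen after their values were seen, also had a late-opening region: the receptors Cd33, Cd84, Cd101, Clec12a, Clec4a2, Pira6, Lilrb4a and Cd200r3, the lipid receptors Cysltr2 and Ptger2, and the ectoenzymes Entpd1 and Bst1. The Cysltr2 region (chr14:73087245-73087984) had a peak of 704 bp at 36 h and 469 bp at 120 h. The Pira6 region (chr7:4292676-4293417) had one of 552 bp at 36 h and 742 bp at 120 h. Those of Clec12a, Clec4a2, Cd33 and Cd101 were at most 403 bp wide in every list. The surface genes named here are a choice from the 413 genes with a region, which are 2.12% of all genes with a peak. Mcpt1, Lyve1, Cd5l, Prom1, Meis2 and Shh, also outside the lists, were the nearest genes of late-opening regions too. The 0 of the 7 lists of earlier stages and other cells thus depends on which genes were listed.

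Late-opening regions were spread over the genome. They lay on 20 chromosomes, none of them on Y, with a median of 1.21 Mb to the nearest other one, and 18 of them lay within 10 kb of another. Of the 413 genes, 396 had 1 region, 16 had 2 and Gm21188 had 3. Beside Stfa3, Il1r2, Nlrp1a, Bcl2l11 and Klf3, those with 2 were Rapgef6, an exchange factor for Rap proteins, Pag1, an adaptor that recruits Csk, St3gal1, a sialyltransferase, Stxbp5, a syntaxin-binding inhibitor of exocytosis, Phactr2, Susd6, Flrt2, Cpeb2, Mir5623, Alas1, the first enzyme of heme synthesis, and the itch receptor gene Mrgpra3. At Phactr2 the pair lay 58 bp apart in intron 1, where 1 site and 2 cannot be told apart. The Mrgpra cluster and the Ugt1a cluster, which encodes glucuronosyltransferases, each held 3, of 30 and 20 regions, against 0.488% of all regions. Both clusters were chosen with their regions known.

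Promoters were scarce: 28 of the 431 lay within 1000 bp of a TSS, or 6.50% (4.53 to 9.23%). The share was 4.51% (3.16 to 6.40%) of the 643 regions that opened at 24 h and stayed, 5.73% (3.56 to 9.11%) of the 279 that opened at 72 h and stayed, 14.5% of all regions and 43.3% of the 12178 regions in all 10 lists. The intervals of the 3 opening sets overlapped. When each list was reduced to its widest 50%, 108 regions met the rule and 13.9% of them were promoters. The promoter share of all regions in the reduced lists was not computed. Introns held 47.1% (42.4 to 51.8%) of the late-opening regions and intergenic sequence 43.2%, and 70.1% lay more than 10 kb from a TSS, against 62.8% of all regions.

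A small group of broad promoters stood beside the distal sites. Hp1bp3, which encodes a heterochromatin-binding relative of linker histone, had the widest region of all (chr4:138216190-138217720), with peaks of 1231, 1459, 1503, 1303 and 1272 bp in the 36, 48, 72, 96 and 120 h lists. Hnrnpul1, an RNA-binding protein gene, was listed from 48 h with 1224 bp (chr7:25754451-25755784), but an earlier peak lay 200 bp from it. Card10, Elovl7, Arhgap1, Stag2, Gm19705 and Mrpl39 followed with widest peaks between 958 and 1070 bp. Mrpl39 and Arhgap1 had no other region in any list. Of 7243 promoter regions at least 900 bp wide, 28 were absent at 0 to 24 h, which is 0.387%, and 8 of these 28 met the rule. Broad promoters that appear only late were thus rare in the lists, and a missed call in all 5 early lists and a newly opened promoter cannot be told apart without read counts.

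The promoters of the genes nearest to distal regions were mostly listed at 0 h or in no list, as for all genes with a distal region. Of 387 genes with a late-opening region more than 1000 bp from a TSS, 197, or 50.9% (45.9 to 55.9%), had a promoter peak at 0 h, and 143, or 37.0% (32.3 to 41.9%), had none in any list. Over all 17152 genes with a distal region these shares were 43.9% and 47.9%. A promoter peak at 120 h and not at 0 h was found for 33, or 8.53% (6.14 to 11.7%). The shares for genes of the sets that opened at 24 h and 72 h were 7.32% (5.46 to 9.74%) and 7.66% (4.96 to 11.7%), and that for all genes with a distal region was 4.59%.

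Most late-opening regions did not lie right beside a peak of an earlier list, which the rule fixes in part. A late peak that overlapped an earlier one was joined to it and so left out. The median gap to the nearest peak of a 0 to 24 h list was 4795 bp, and 47 regions, or 10.9%, had one within 500 bp. The smallest gaps, after the 42 bp at Nfkbia, were 77 bp at Itpr2, an inositol trisphosphate receptor gene, and 103 bp at Pkig, and they were 117 bp at both Dock4 and Eef1a1. Regions that opened at 24 h had a median gap of 5403 bp to a list they were absent from, and those that opened at 72 h one of 3142 bp, where 2 more lists count as earlier. Their shares within 500 bp were 7.15% and 10.4%.

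Repeats covered 27.6% (23.6 to 32.0%) of the late-opening regions, against 22.3% of all regions and 12.2% of regions in all lists. ERVL-MaLR elements, long terminal repeats of an old retrovirus-like family, held 36 of the 431, or 8.35% (6.09 to 11.3%), against 6.53% (4.87 to 8.71%) of those opening at 24 h, 4.30% (2.48 to 7.37%) of those opening at 72 h and 4.74% of all regions. When all lists were cut by width to the length of the shortest, 23620 peaks, the share of the regions that met the rule was 3.61%. The share of all regions under that cut was not computed. No single subfamily dominated: MTE2a was the most frequent, in 5 regions. L1 elements held 5.34% (3.58 to 7.88%) of the late-opening regions, against 5.29% of those opening at 24 h, 4.30% of those opening at 72 h and 3.03% of all regions. Within the late-opening regions they held 7.60% (4.92 to 11.6%) of the regions listed from 36 h and 2.21% (0.863 to 5.54%) of those first listed at 48 h, with overlapping intervals. B2 elements, short repeats that make up 4.56% of all regions, held 0 of the 431, which allows a share of up to 0.696% when 3 counts are taken as the limit (Wilson upper bound 0.883%). In regions present in all lists their share was 0.378%, and in those opening at 24 h and 72 h 0.311% and 0.358%.

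**Figure D4:**
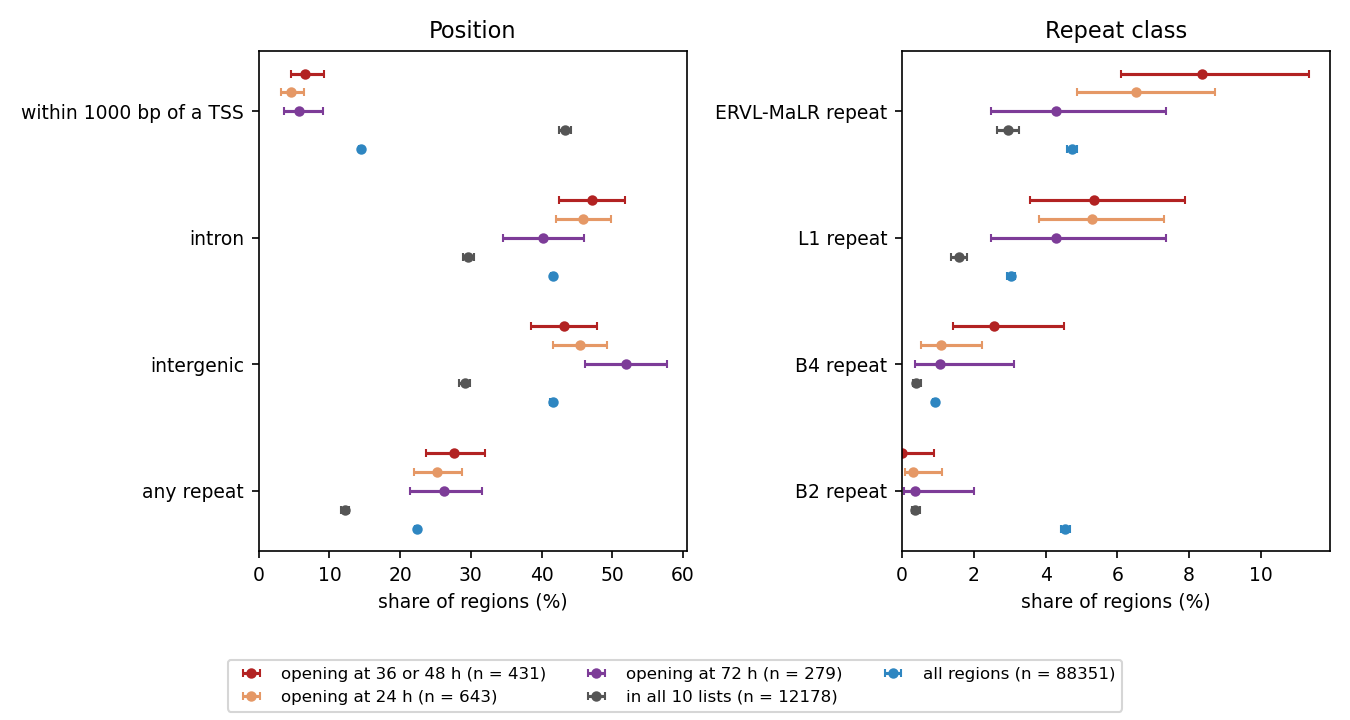
Share in % of regions by position (left) and by repeat class (right) with 95% Wilson intervals, for regions that opened at 36 or 48 h, at 24 h and at 72 h, regions in all 10 lists and all regions. Promoter shares of the 3 opening sets lie between 4.51 and 6.50%, far from the 43.3% of regions in all lists, and B2 repeats are at or near 0 in each set but all regions.

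Peaks within the late-opening regions widened between 48 and 72 h. The median width was 353, 375, 474, 458 and 462 bp in the 36, 48, 72, 96 and 120 h lists. Of 428 regions with 1 peak at both times, 349 were wider at 72 h than at 48 h, or 81.5% (77.6 to 84.9%), with a median ratio of 1.14. Of the regions opening at 24 h, 76.2% (72.8 to 79.4%) were wider at 72 h than at 48 h, with a median ratio of 1.08. That interval overlapped the one of the late-opening regions. Regions in all lists were wider at 72 h in 71.0% of cases with a ratio of 1.04, so the lists themselves differ in width. From 48 to 120 h, 66.6% (62.0 to 70.9%) of the late-opening regions were wider, against 53.8% (49.9 to 57.6%) of those opening at 24 h and 47.6% of regions in all lists. Between 96 and 120 h, 212 widened and 212 narrowed. The peak was widest in the 72 h list for 149 regions, in the 120 h list for 132 and in the 36 h list for 12. Presence in the late lists was part of the selection, so the widening was not tested.

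Single regions went far beyond these medians. The 5 that widened most from 48 to 120 h were those nearest to Morf4l1-ps1 (354 to 1118 bp, in intron 3 of Lpp), Usp32 (271 to 981 bp), 9130015A21Rik (290 to 972 bp), Pcsk6 (283 to 923 bp) and Eea1 (291 to 925 bp). The 5 that narrowed most were near Lbr, the lamin B receptor whose loss gives neutrophils with unlobed nuclei, and near Zfp608, Myrip, Cpeb2 and Itpr2. The Lbr region (chr1:181865701-181867180), 24077 bp before the TSS, had a peak of 1404, 1104, 1103, 548 and 510 bp in the 36, 48, 72, 96 and 120 h lists. The narrowest regions, 243 to 269 bp at their widest, belonged to Kdm6b, a histone H3K27 demethylase, Gm20756, Zmiz1, Cd3eap and AI314180.

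**Figure D5:**
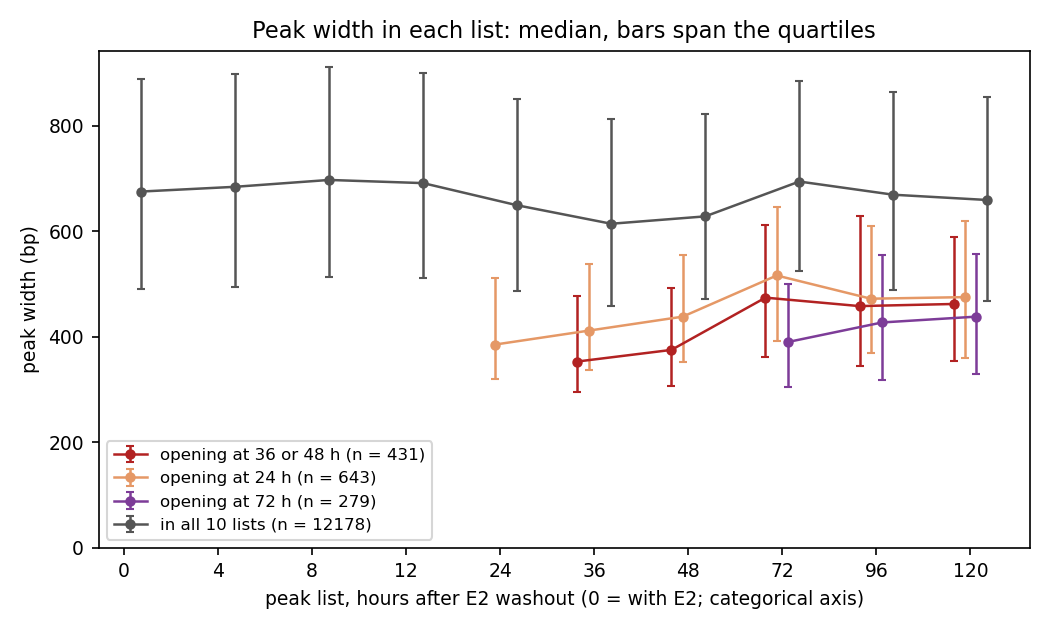
Median peak width in bp in each list (points), with bars from the lower to the upper quartile, for regions that opened at 36 or 48 h, at 24 h and at 72 h and regions in all 10 lists. The late-opening regions go from 353 bp at 36 h to 474 bp at 72 h, and regions in all lists stay between 614 and 697 bp.

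The choice of lists at the boundary decided how many regions met the rule. A further 707 regions had the same late pattern but were also listed at 24 h, whereas 19, 19, 26 and 51 were also listed at 0, 4, 8 and 12 h respectively and in no other early list. Regions missing from a single late list numbered 320, 55, 80 and 287 for the 48, 72, 96 and 120 h lists. The rule gave 1138 regions without the 24 h list and 718 without the 120 h list. The 24 h list was the longest with 62559 peaks and the 120 h list the shortest with 23620. Of the 9201 regions absent at 0 to 24 h, 4828 were listed at 48 h and 1645 at 120 h, and 1885 were listed at 48 h and in no other list.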

How the data were processed

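ATAC-seq of 20 samples (2 per time) was deposited as 1 peak list per time point. The tools named in the submitters' processing notes are BWA, MACS2 2.0 and STAR 2.5, without their roles. Whether the authors pooled reads, or shifted them for Tn5, is not given in the sources read here. Per the file headers, HOMER annotated the lists against mm10, whereas the notes name mm9. Of 55261 peaks at 0 h, 10607 lay within 1000 bp of an annotated TSS and 1147 between 4000 and 5000 bp away, so positions were read as mm10, counted from 1. The deposited score is 0 for every peak and was not used. Deposited positions and distances to the TSS are in bp.

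Overlapping peaks of different lists (1 bp or more) were chained into regions, and gene and annotation are those of the widest peak, nearest gene as deposited. The merging and sorting were tested on simulated lists. The regions and gene lists were chosen with earlier results of these data known. Genes were named by rule: those with most regions, every gene of the neutrophil, factor and macrophage lists with a region, and the widest, narrowest and most changed regions. Other genes are said to be chosen after their values were seen. Promoter motifs were searched on both strands of 250 bases. Distal sequence was not analysed here. Python 3.11.15, pandas 2.3.3 and scipy 1.17.1 were used.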

Additional observations from a re-analysis of the deposited data

How the results depend on the processing

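No paired analysis was possible because each time point has 1 list for both replicates, and no replicate could be left out. The number of regions, 431, was 433 with an overlap of at least 50% of the narrower peak, 444 with 48 h peaks taken alone, 511 without the 96 h list, 384 without those within 500 bp of an early peak and 527 with lists of equal length by width. It was 250 when presence at 36 h was required, 181 when absence was, 718 without the 120 h list, 1138 without the 24 h list and 108 with the widest 50% of each list. The genes, 413, were 245, 176, 664, 1015 and 106 under those 5 settings. Lists of equal length kept only 106 of the 431 regions, and the widest 50% kept 53. The promoter share of 6.50% was 13.9% with the widest 50% and 9.74% with promoters taken to 2000 bp, and between 4.64 and 7.97% otherwise. The median widest peak of 548 bp was 374 bp with 48 h peaks alone, where only that list is measured, 502 bp without the 120 h list, and 645 and 793 bp with the width-limited lists. The 3 granule and surface genes were 14 without the 24 h list and 0 with either width-limited setting.

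Settings for the following were added after seeing the data. The 18 genes of the 10 neutrophil lists were 6 with absence at 36 h, 60 without the 24 h list, 5 with the widest 50% (1 of the 18 among them) and 17 with lists of equal length (3 of the 18 among them). The 0 genes of the 7 other lists were 4 without the 120 h list (Ctsc, Etv6, Msr1 and Tfrc), 1 without the 96 h list (Epor), 5 without the 24 h list (Ctsc, F13a1, Hdc, Mitf and Trp63) and 6 with lists of equal length (Csf1r, Erg, Etv6, Ms4a3, Tpsab1 and Zfpm1), so that 0 rests on the lists used. The ERVL-MaLR share of 8.35% was 3.61 and 3.70% with the width-limited lists, and the B2 share stayed at or below 0.176% in all 10 settings. The cause of these moves was not tested. Without reads, depth per list is unknown, and absence from a list may be a peak missed at that depth.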

Other observations

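Regulators and signalling genes outside the lists, chosen after their values were seen, also had a region that opened at 36 or 48 h. Id3, an inhibitor of E proteins, had one 20428 bp before its TSS (chr4:136122988-136123809) with peaks of 385, 409, 771, 738 and 796 bp in the 36, 48, 72, 96 and 120 h lists. Lmo4, a LIM-domain cofactor, had one 162724 bp after its TSS. Tank, which acts in NF-κB signalling, had one 41530 bp before its TSS. Itgb8, an integrin chain, had one in intron 1 of 13 (chr12:119230401-119231159) with 548 bp at 36 h and 620 bp at 120 h. Both regions of Alas1 were first listed at 48 h.

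The reverse pattern, present in all lists of 0 to 24 h and absent from 48 to 120 h, was met by 2492 regions. It held 35 regions of the 10 neutrophil lists and 28 of the 7 lists of earlier stages and other cells, which is 1.69% (1.22 to 2.35%) and 3.20% (2.23 to 4.59%) of their regions, against 2.82% of all regions.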
